A study of Rattus norvegicus with 27 samples.

Results

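The comparison described here is the late step of culture on soft PDMS (polydimethylsiloxane, a silicone gel), day 14 against day 7, in primary rat lung fibroblasts. It takes the 8 libraries whose columns in the deposited count table carry PDMS and day 14 (4 libraries) or PDMS and day 7 (4 libraries), out of 27 libraries of the series. All cells came from lungs of Sprague-Dawley rats, were enriched on magnetic beads for CD90 (the Thy-1 surface protein), and were kept without other cell types in MucilAir medium on a layer of rat tail collagen I applied at 38 µg/ml. The PDMS was Sylgard 527, with a stated stiffness between 3 and 5 kPa, and the column names mark every library as WT. No drug, cytokine or genetic change separates the groups, and the labels give no animal age. The other libraries used here were PDMS day 4 and PDMS day 2 (4 each), Plastic day 14 (4), Plastic day 7 (3) and Plastic day 4 (4), on the same collagen. The labels do not say whether the libraries of a group came from separate animals or cultures, so the p-values speak only of the spread among these libraries, some of which may be technical. In bulk RNA a change in the mix of cells and a change per cell cannot be told apart.

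Fibroblasts build and remodel the collagen-rich matrix of the lung and sense its stiffness through integrins, focal adhesions and the actin cytoskeleton. On stiff plastic they tend to spread, form stress fibres and take on a contractile myofibroblast state, whereas soft gels nearer to healthy lung usually hold them in a less contractile state. Long culture adds its own changes, among them contact between cells as the layer fills, less division and the laying down of new matrix by the cells themselves. Setting day 14 against day 7 on one soft surface asks how far the transcriptome still moves late in culture, with the substrate held the same.

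The count table carries Ensembl rat gene IDs with no gene names, and 0 of its 32753 IDs matched the RefSeq gene table used here. Genes are therefore described as sets and by 4 IDs, 2 that rose and 2 that fell, those of largest fold among called genes at 5 CPM or more (counts per M of scaled library size), and no gene is given a name or a function. The fibroblast label could not be checked against marker genes for the same reason, nor could markers of other cell types be read.

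The PDMS day 14 libraries held 24.7, 24.2, 20.6 and 24.4 M counts (M as in Mb; replicates 1 to 4) and the PDMS day 7 libraries 24.6, 17.9, 25.3 and 18.5 M. PDMS day 14 replicate 3 stood apart from the rest of its group. It had the fewest counts, and on the second principal component of log2 CPM, which carried 15.9% of the variance, it scored 60.2 where the other PDMS day 14 libraries scored 2.78, 1.31 and -4.08. Plastic day 14 replicate 4 scored 67.9, while the other Plastic day 14 libraries scored between -31.8 and -30. Plastic day 4 replicate 3 at 77.1 and PDMS day 2 replicate 1 at 54.9 were also high. Across genes, the deviations of PDMS day 14 replicate 3 from its group mean had a correlation of 0.71 with those of Plastic day 14 replicate 4, 0.47 with those of Plastic day 7 replicate 3 and 0.46 with those of PDMS day 7 replicate 1. Plastic day 7 replicate 3 also had correlations of 0.65 with Plastic day 14 replicate 4 and 0.76 with Plastic day 4 replicate 3. These correlations describe shared deviations between groups, and their source was not tested.

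**Figure D1:**
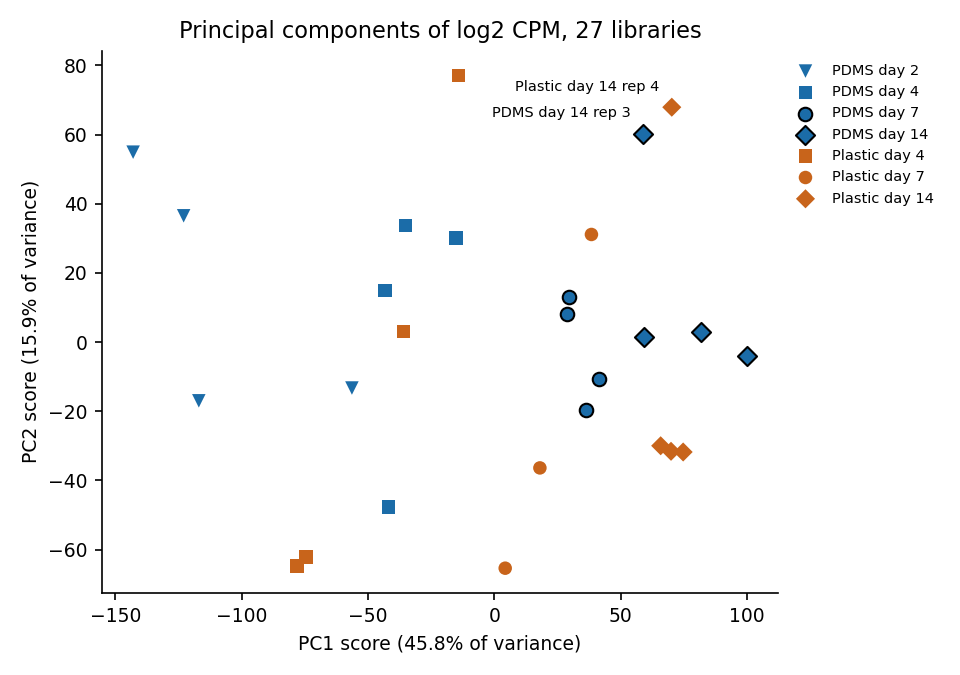
Scores of the 27 libraries on the first (x) and second (y) principal component of log2 CPM, with colour for substrate, marker shape for day and a black outline for the PDMS day 14 and PDMS day 7 libraries. PDMS day 14 lies right of PDMS day 7 on the first component, and PDMS day 14 replicate 3 lies high on the second component, as do Plastic day 14 replicate 4, Plastic day 4 replicate 3 and PDMS day 2 replicate 1.

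On the first component, with 45.8% of the variance, PDMS day 14 scored 81.9, 59.2, 58.8 and 100 and PDMS day 7 scored 29.6, 36.2, 41.5 and 28.7. The groups did not overlap, and every PDMS day 14 library lay farther from the earlier days. Those averaged -33.95 ± 12.9 at PDMS day 4 and -109.8 ± 37.3 at PDMS day 2 (SD, n = 4 each). On plastic too the groups did not overlap, with scores of 4.27 to 38.4 at day 7 (n = 3) and 65.8 to 74.7 at day 14 (n = 4). Libraries of PDMS day 14 resembled each other less than those of PDMS day 7. Their pairwise correlations in log2 CPM across genes were 0.957 to 0.976 at day 14 and 0.978 to 0.985 at day 7, and the median gene had an SD of 0.26 log2 units at day 14 and 0.23 at day 7. The SD was larger at day 14 for 60.1% of the 14258 genes tested. Without PDMS day 14 replicate 3 this share was 54.9%, and the median SD at day 14 was 0.24. Of all groups, PDMS day 7 had the lowest median SD and PDMS day 14 the next lowest. The median SD was 0.264 at PDMS day 4, 0.403 at PDMS day 2 and 0.289 to 0.313 in the plastic groups.

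Between PDMS day 14 and PDMS day 7, 788 of 14258 genes changed (edgeR quasi-likelihood test, Benjamini-Hochberg adjusted p under 0.05, n = 4 and 4), or 5.53% of those tested. Of these, 417 rose at day 14 (2.92%) and 371 fell (2.6%). Most changes were modest in size. The median log2 fold change was 0.77 among the genes that rose and -0.73 among the genes that fell. In all, 149 of the 417 (35.7%) and 120 of the 371 (32.3%) changed at least 2-fold. At least 4-fold changes were seen in 38 genes that rose and 28 that fell, and the fitted values reached 4.85 and -4.07 on the log2 scale. In 136 genes that rose and 104 that fell the change was under 1.5-fold.

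**Figure D2:**
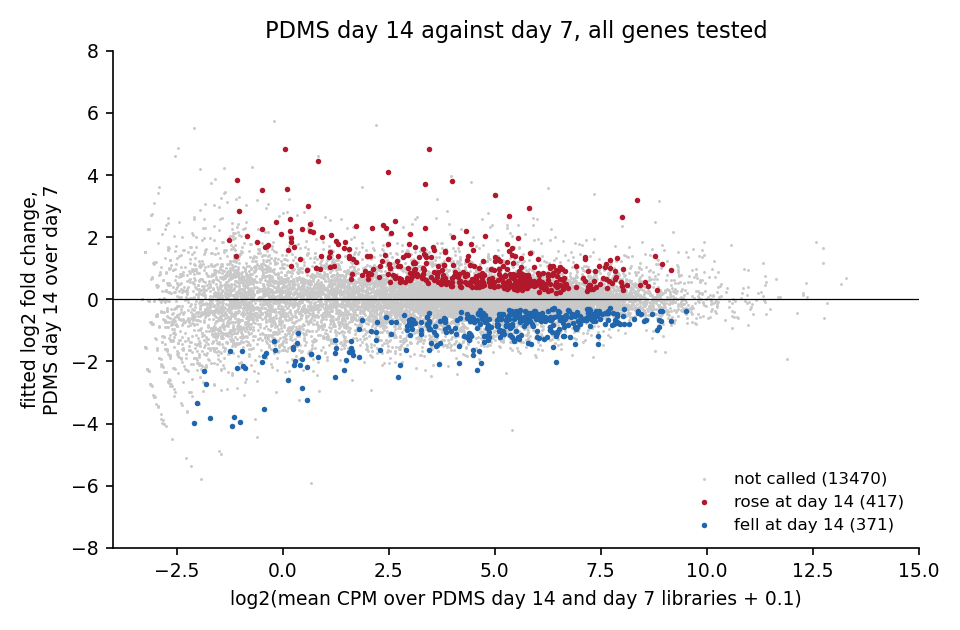
Fitted log2 fold change of PDMS day 14 over PDMS day 7 (y) against log2 of the mean CPM of these 8 libraries plus 0.1 (x), 1 point per gene tested. The 417 genes that rose (red) and 371 that fell (blue) are spread over the range of levels, with larger folds among the low genes.

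The counts of rises and falls are given by the level of the gene. Among the 2186 genes averaging over 100 CPM, 50 rose (2.29%) and 85 fell (3.89%). Among the 5046 genes of 20 to 100 CPM, 192 rose (3.8%) and 176 fell (3.49%). Among the 2944 genes of 5 to 20 CPM, 110 rose (3.74%) and 57 fell (1.94%), a lean opposite to that over 100 CPM. The 4082 genes under 5 CPM gave 65 rises and 53 falls, with the largest median log2 fold changes (1.66 and -1.82) and also the largest median standard error, 0.61, against 0.17 over 100 CPM. These shares were not tested against each other. With library size in place of TMM scaling, 262 of 651 called genes rose (40.2%) and 389 fell, where 52.9% of the calls rose with TMM, so the balance of directions depends on the scaling. The split by level was computed with TMM scaling only.

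In terms of the RNA pool, the 417 genes that rose took 2.76% of scaled reads at PDMS day 14 and 1.63% at PDMS day 7. The 371 genes that fell took 2.15% at PDMS day 14 and 3.43% at PDMS day 7. Without PDMS day 14 replicate 3 the PDMS day 14 shares were 2.64% for the genes that rose and 2.25% for those that fell. No called gene was at 0 counts in all libraries of a group, and in only 2 genes that rose and 0 that fell was a mean of at least 5 CPM in one group matched by a mean under 1 CPM in the other. The other called genes had no such contrast in level.

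The groups did not overlap in log2 CPM for 386 of the 417 genes that rose and 353 of the 371 that fell. Over all 14258 genes this held for 3278 (23%), of which 2539 were not called, beside the 5.53% called. The distance from the nearest PDMS day 14 library to the nearest PDMS day 7 library was small, with a median of 0.27 log2 units in the genes that rose and 0.26 in those that fell.

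The mean log2 CPM of the 417 genes was 4.74, 4.69, 5.01 and 4.8 in PDMS day 14 replicates 1 to 4 and 3.93, 3.71, 3.95 and 3.81 in PDMS day 7 replicates 1 to 4. PDMS day 14 replicate 3 was the highest of its group in 228 of them. The 371 genes stood at 4.49, 4.51, 4.12 and 4.25 in PDMS day 14 and at 5.18, 5.48, 5.12 and 5.29 in PDMS day 7. Here PDMS day 14 replicate 3 was the lowest of its group in 222 genes. These levels describe genes chosen on the same libraries and are no separate evidence of the step. Relative to the PDMS day 7 mean, replicate 3 had a median difference of 0.90 in the genes that rose and -0.93 in those that fell, and the mean of the other 3 PDMS day 14 libraries had 0.70 and -0.68. In all 788 genes the mean of those 3 libraries lay on the called side of PDMS day 7, which choosing them on these libraries favours.

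The count of genes depended strongly on single libraries. It was 22 without replicate 3 of PDMS day 14 and 238 without replicate 4 of that group, and 385, 5 and 62 without PDMS day 7 replicates 1, 2 and 4. Leaving out PDMS day 14 replicate 1 or 2 or PDMS day 7 replicate 3 gave 693, 646 and 595. In these 8 fits the whole table held 2633 to 3631 genes with an unadjusted p under 0.05, against 3819 with all libraries. In every one of them all 788 genes kept their direction and an unadjusted edgeR p under 0.05. Choosing the genes on these libraries favours that. Without Plastic day 14 replicate 4, which enters only through the scaling and the shared error estimate, 1433 genes were called, 692 that rose and 741 that fell. The smallest adjusted p with all libraries was 0.00669, so every called gene had an adjusted p between that value and 0.05. DESeq2 called 1814 genes, all 788 among them in the same direction, and limma-voom 1033, with 755 of the 788. With the replicate number as a block, the fit of all libraries called 1006 genes with 750 of the 788 among them, and the fit of PDMS day 14 and day 7 alone called 875 with only 355 of the 788.

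**Figure D3:**
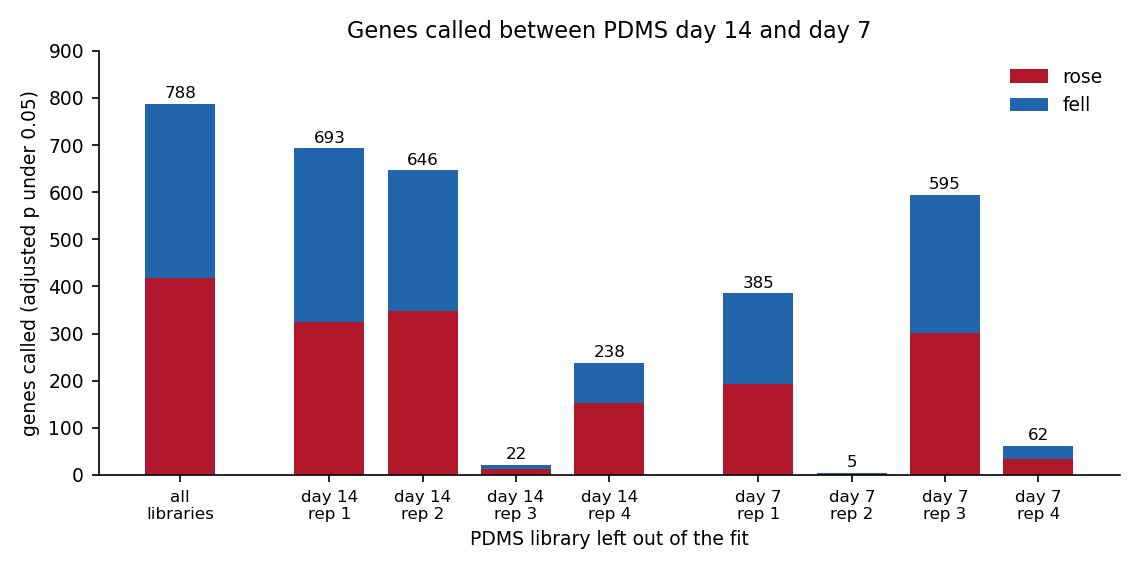
Number of genes called between PDMS day 14 and PDMS day 7 (y) with all libraries and with each of the 8 PDMS libraries left out in turn (x), split into genes that rose (red) and fell (blue). The count is 788 with all libraries and between 5 and 693 without 1 library.

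Reads were concentrated in fewer genes at PDMS day 14 than at PDMS day 7. This was measured as an effective gene number, obtained by exponentiating the Shannon entropy of each library's gene shares, which is lower when a few genes take more of the reads. It was 3458, 3266, 3333 and 3289 in PDMS day 14 and 3755, 3902, 3473 and 3684 in PDMS day 7. Every PDMS day 14 library lay below every PDMS day 7 library. The difference was -367 genes (two-sided exact permutation p = 0.0286, the smallest that 4 against 4 libraries can give, and 0.0429 after Benjamini-Hochberg adjustment over 3 measures), and it was -366 without PDMS day 14 replicate 3, where the adjusted exact permutation p was 0.0857. The top 10 genes took 7.91%, 8.58%, 8.44% and 7.76% of reads in PDMS day 14 and 6.31%, 5.67%, 7.06% and 6.41% in PDMS day 7, a difference of 1.81 percentage points (exact permutation p = 0.0286, adjusted 0.0429). Without PDMS day 14 replicate 3 it was 1.72 percentage points (exact permutation p = 0.0286, adjusted 0.0857). Once every library had been thinned to 17285101 reads, the genes read 10 times or more numbered 12457, 12499, 12602 and 12089 in PDMS day 14 and 12663, 12553, 12570 and 12450 in PDMS day 7. These groups overlapped, and the difference of -147 genes did not pass (exact permutation p = 0.286, adjusted 0.286). The mean effective gene number on PDMS was 4060, 3892, 3704 and 3336 at days 2, 4, 7 and 14 (n = 4 each). On plastic it was 3664, 3093 and 2937 at days 4, 7 and 14 (n = 4, 3 and 4). The top 10 genes averaged 7.05%, 9.01% and 9.3% of reads in these plastic groups. The other groups were not tested on these measures.

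Averaged over each set, the genes of the late step had similar levels at days 2, 4 and 7 on PDMS, although single genes went up or down over those days. Mean log2 CPM of the 417 genes that rose averaged 3.75 ± 0.11 at PDMS day 2, 3.82 ± 0.11 at PDMS day 4, 3.85 ± 0.11 at PDMS day 7 and 4.81 ± 0.14 at PDMS day 14 (SD, n = 4 each). For the 371 genes that fell it averaged 5.28 ± 0.17 at PDMS day 2, 5.3 ± 0.11 at PDMS day 4, 5.27 ± 0.16 at PDMS day 7 and 4.34 ± 0.19 at PDMS day 14. Without replicate 3, PDMS day 14 averaged 4.74 ± 0.06 for the genes that rose and 4.42 ± 0.15 for those that fell (SD, n = 3). The libraries of days 2, 4 and 7 overlapped in both sets. Choosing genes on day 14 against day 7 favours genes that were low or high by chance at those days, so only the day 2 and day 4 levels are free of the choice.

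**Figure D4:**
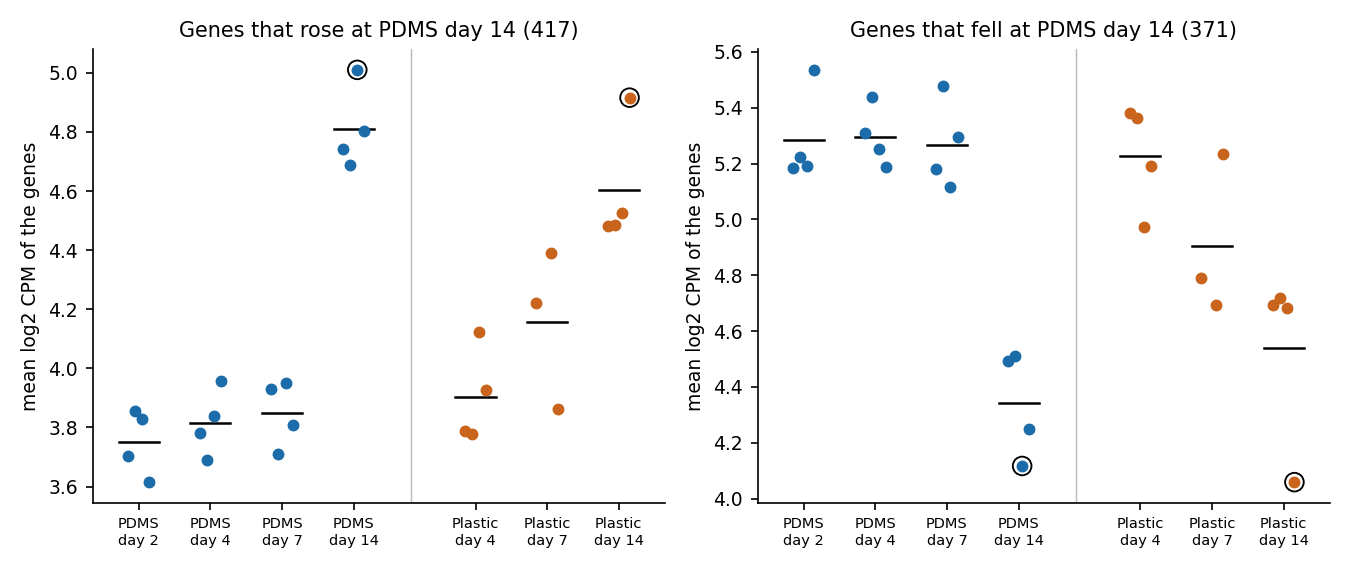
Mean log2 CPM (y) of the 417 genes that rose (left) and the 371 genes that fell (right) at PDMS day 14 against day 7, 1 point per library, with bars at group means, PDMS in blue and plastic in orange by day (x); rings mark PDMS day 14 replicate 3 and Plastic day 14 replicate 4. On PDMS the set means of days 2, 4 and 7 lie close together and those of day 14 apart from them. On plastic the means of days 4, 7 and 14 are spaced more evenly. Choosing the genes on PDMS day 14 against day 7 favours this contrast.

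The step before, PDMS day 7 against PDMS day 4, uses the same PDMS day 7 libraries, so its values are only set beside those of the late step. It called 21 genes (0.147% of 14258), all 21 of them lower at PDMS day 7 (edgeR, 4 libraries a group), and 1708 had an unadjusted p under 0.05. The median size of the log2 fold change over all genes was 0.33 for the late step and 0.18 for that step. The late step spans 7 days and the earlier one 3. Fitted without the other groups, PDMS day 7 against day 4 gave 521 genes, and DESeq2 gave 383. It gave 1 to 10 when 1 library was left out. In the earlier step the median log2 fold change was 0.08 over the 417 genes that rose late and -0.02 over the 371 that fell late. These medians stand over genes of both signs, with 278 of the 417 higher and 139 lower, and 160 of the 371 higher and 211 lower, at PDMS day 7 than at PDMS day 4. None of them was called in the earlier step, beside 0.147% of all genes. An unadjusted edgeR p under 0.05 was reached there by 25 higher and 14 lower genes of the 417. Of the 371 it was reached by 5 higher and 13 lower genes, and of all 14258 by 524 higher and 1184 lower. Higher at PDMS day 7 than at PDMS day 4 were 66.7% of the 417, 43.1% of the 371 and 48.7% of all genes. These shares were not tested against each other.

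Plastic was then used to see what the same genes did between day 14 and day 7 on a stiff surface, in libraries that took no part in choosing them, although they share the scaling and the error estimate. On plastic, 12 genes differed between day 14 and day 7 (0.0842% of 14258), of which 3 were higher (0.021%) and 9 lower (0.0631%) at Plastic day 14 (edgeR, n = 4 and 3), and 2042 genes had an unadjusted p under 0.05. Of these 12 genes, 8 were called in the same direction on PDMS. That is 1.02% of the PDMS list and 66.7% of the plastic list. Of all 14258 genes, 5.53% were called on PDMS in either direction. Both calls use the same error estimate for each gene, so the overlap is not independent. The count on plastic was 0 in a fit of its groups alone, 0 with limma-voom and 364 with DESeq2, and 0 to 4 when 1 plastic library was left out. Plastic day 14 replicates 2 and 3 were closely alike. The median squared difference between their counts was 2.7 times that expected from sampling alone. For other pairs of that group it was 8.64 to 39 times. Summing replicates 2 and 3 to 1 library left 0 genes called.

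The genes of the late step moved the same way on plastic in most cases, by less. Of the 417 genes, 374 had a positive log2 fold change on plastic, with a median of 0.32, and of the 371 genes 344 had a negative one, with a median of -0.27. Together 718 of 788 (91.1%) had the same sign on both surfaces, beside 68.9% of all genes tested. Without Plastic day 14 replicate 4 the count was 615 (78%, beside 58.8% of all genes), and the medians on plastic were 0.22 and -0.15. In 753 of the 788 genes the change on plastic was the smaller, as choosing genes on PDMS favours.

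Set means on plastic were spread more evenly over the days than on PDMS. The genes were chosen on PDMS day 14 against day 7. That favours a sharp step on PDMS, and PDMS day 7 levels apart from those on plastic. The contrast is therefore no separate evidence of a difference between the surfaces. The 417 genes averaged 3.90 ± 0.16 at Plastic day 4 (n = 4), 4.16 ± 0.27 at Plastic day 7 (n = 3) and 4.6 ± 0.21 at Plastic day 14 (SD, n = 4). At Plastic day 7 replicates 1 and 3 stood at 4.22 and 4.39, above every PDMS day 7 library, and replicate 4 at 3.86 stood within their range. The 371 genes averaged 5.23 ± 0.19 at Plastic day 4 (n = 4), 4.91 ± 0.29 at Plastic day 7 (n = 3) and 4.54 ± 0.32 at Plastic day 14 (SD, n = 4). Plastic day 14 replicate 4, at 4.92 for the genes that rose and 4.06 for those that fell, lay beyond the other Plastic day 14 libraries, which stood at 4.48 to 4.53 and 4.68 to 4.72. Without it the Plastic day 14 means were 4.5 ± 0.02 and 4.7 ± 0.02 (SD, n = 3).

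The difference between the steps on PDMS and plastic was tested gene by gene as an interaction term. With edgeR it called 0 of 14258 genes (0%), and the smallest edgeR adjusted p was 0.712. DESeq2 called 1 gene and limma-voom 0. With edgeR 980 genes had an unadjusted p under 0.05. A larger count on PDMS than on plastic is therefore not shown to be a different response. Without Plastic day 14 replicate 4, 2109 genes had an unadjusted p under 0.05 and 0 were called.

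Of the genes eligible to be named, ENSRNOG00000015438 had the largest rise. It had 19.6, 1.99, 56.1 and 6.23 CPM in PDMS day 14 replicates 1 to 4, and 1.3, 0.213, 0.757 and 0.581 CPM in PDMS day 7 replicates 1 to 4. All PDMS day 14 libraries were above all PDMS day 7 libraries, but they differed widely among themselves, with replicate 3 highest and replicate 2 close to the earlier days. The mean was 21 ± 24.6 CPM at PDMS day 14 and 0.714 ± 0.454 CPM at PDMS day 7 (SD, n = 4 each), 4.84 ± 1.14 apart on the log2 scale (SE of the fit, edgeR adjusted p = 0.0234). Without PDMS day 14 replicate 3 it was 3.67 (edgeR adjusted p = 0.102), and the call was also lost without PDMS day 7 replicate 2 or 4 (edgeR adjusted p = 0.106 and 0.0745) and with limma-voom (log2 change 4, adjusted p = 0.0664). PDMS day 2 averaged 1.46 ± 1.48 CPM and PDMS day 4 0.749 ± 0.682 CPM (n = 4 each). Plastic day 14 showed the same unevenness, with 45.6 CPM in replicate 4 and 2.33 to 2.97 CPM in replicates 1 to 3. The change on plastic, 2.83 ± 1.16 on the log2 scale, did not pass (SE; edgeR adjusted p = 0.261). Without Plastic day 14 replicate 4 it was 0.47 ± 0.93 (SE; edgeR adjusted p = 0.879), with 2.6 ± 0.335 CPM at Plastic day 14 (SD, n = 3) and 1.86 ± 1.06 CPM at Plastic day 7 (SD, n = 3).

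ENSRNOG00000062141 had the next largest rise and was read mainly at day 14 on both surfaces. Its counts were 289, 169, 190 and 306 in PDMS day 14 and 8, 6, 25 and 14 in PDMS day 7. In CPM these are 11.8, 7.15, 9.59 and 13 at PDMS day 14 and 0.316, 0.319, 0.997 and 0.74 at PDMS day 7, with no overlap and with close agreement between the PDMS day 14 libraries. The mean was 10.4 ± 2.57 CPM at PDMS day 14 and 0.593 ± 0.335 CPM at PDMS day 7 (SD, n = 4 each), 4.11 ± 0.97 apart on the log2 scale (SE of the fit, edgeR adjusted p = 0.0248). It was read only 0, 0, 1 and 2 times in the PDMS day 2 libraries and 0, 4, 3 and 8 times in those of PDMS day 4, so its level on PDMS was lowest at the start. On plastic it averaged 15.3 ± 12.1 CPM at day 14 (n = 4) and 1.22 ± 1.49 CPM at day 7 (n = 3), a log2 fold change of 3.63 ± 1.06 that did not pass (edgeR adjusted p = 0.127). Replicate 4 of Plastic day 14 stood at 31.9 CPM, and without it the mean was 9.76 ± 6.06 CPM (SD, n = 3) and the log2 fold change 2.98 ± 1.04 (SE; edgeR adjusted p = 0.209). The PDMS call was lost without PDMS day 14 replicate 3 (log2 fold change 4.15, edgeR adjusted p = 0.0762) and without PDMS day 7 replicate 1, 2 or 4 (edgeR adjusted p = 0.0542, 0.107 and 0.07).

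ENSRNOG00000045558 had the largest fall among the genes eligible to be named. It had 1.88, 1.48, 3.13 and 1.23 CPM in PDMS day 14 replicates 1 to 4, and 16.9, 7.29, 13.3 and 6.34 CPM in PDMS day 7 replicates 1 to 4. The groups did not overlap. The mean was 1.93 ± 0.843 CPM at PDMS day 14 and 11 ± 5.02 CPM at PDMS day 7 (SD, n = 4 each), a fitted log2 change of -2.51 ± 0.56 (SE of the fit, edgeR adjusted p = 0.0218). Over the whole course its mean was highest in the middle days, with 2.02 ± 0.955 CPM at PDMS day 2 and 8.89 ± 5.09 CPM at PDMS day 4 (n = 4 each). On plastic, where the earliest libraries are of day 4, the mean was also highest at day 7, with 6.14 ± 3.4 CPM at day 4 (n = 4), 9.25 ± 2.25 CPM at day 7 (n = 3) and 3.77 ± 2.04 CPM at day 14 (n = 4), but the change there, -1.29 ± 0.57 on the log2 scale, did not pass (edgeR adjusted p = 0.304). The PDMS call was lost without PDMS day 7 replicate 2, PDMS day 14 replicate 3 or PDMS day 14 replicate 4 (edgeR adjusted p = 0.0676, 0.0557 and 0.0548).

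ENSRNOG00000027787 had similar means at PDMS days 2, 4 and 7 and fell at day 14. It had 10.3, 13.7, 3.58 and 4.92 CPM in PDMS day 14 replicates 1 to 4, and 31.6, 56.2, 29 and 42 CPM in PDMS day 7 replicates 1 to 4. The highest PDMS day 14 library was below the lowest PDMS day 7 library by more than 2-fold. The mean was 8.14 ± 4.74 CPM at PDMS day 14 and 39.7 ± 12.3 CPM at PDMS day 7 (SD, n = 4 each), a fitted log2 change of -2.28 ± 0.58 (SE of the fit, edgeR adjusted p = 0.0319). It averaged 34.7 ± 18 CPM at PDMS day 2 and 39.9 ± 14.6 CPM at PDMS day 4 (n = 4 each). On plastic its means were 34.6 ± 14.8 CPM at day 4 (n = 4), 17.5 ± 12.2 CPM at day 7 (n = 3) and 14 ± 9 CPM at day 14 (n = 4), and its change from day 7 to day 14 was -0.31 ± 0.60 on the log2 scale (SE; edgeR adjusted p = 0.864). Plastic day 14 replicate 4 was lowest of its group at 1.83 CPM, and without it the mean was 18.1 ± 4.68 CPM (SD, n = 3) and the change 0.05 ± 0.53 (SE; edgeR adjusted p = 0.981). The difference between the steps on PDMS and plastic, -1.97 ± 0.84 on the log2 scale, did not pass (SE; edgeR adjusted p = 0.712), nor did that of -2.34 ± 0.71 without Plastic day 14 replicate 4 (SE; edgeR adjusted p = 0.22). The PDMS call was lost without PDMS day 7 replicate 2 or 4 or PDMS day 14 replicate 3 or 4 (edgeR adjusted p = 0.116, 0.0758, 0.114 and 0.0767).

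**Figure D5:**
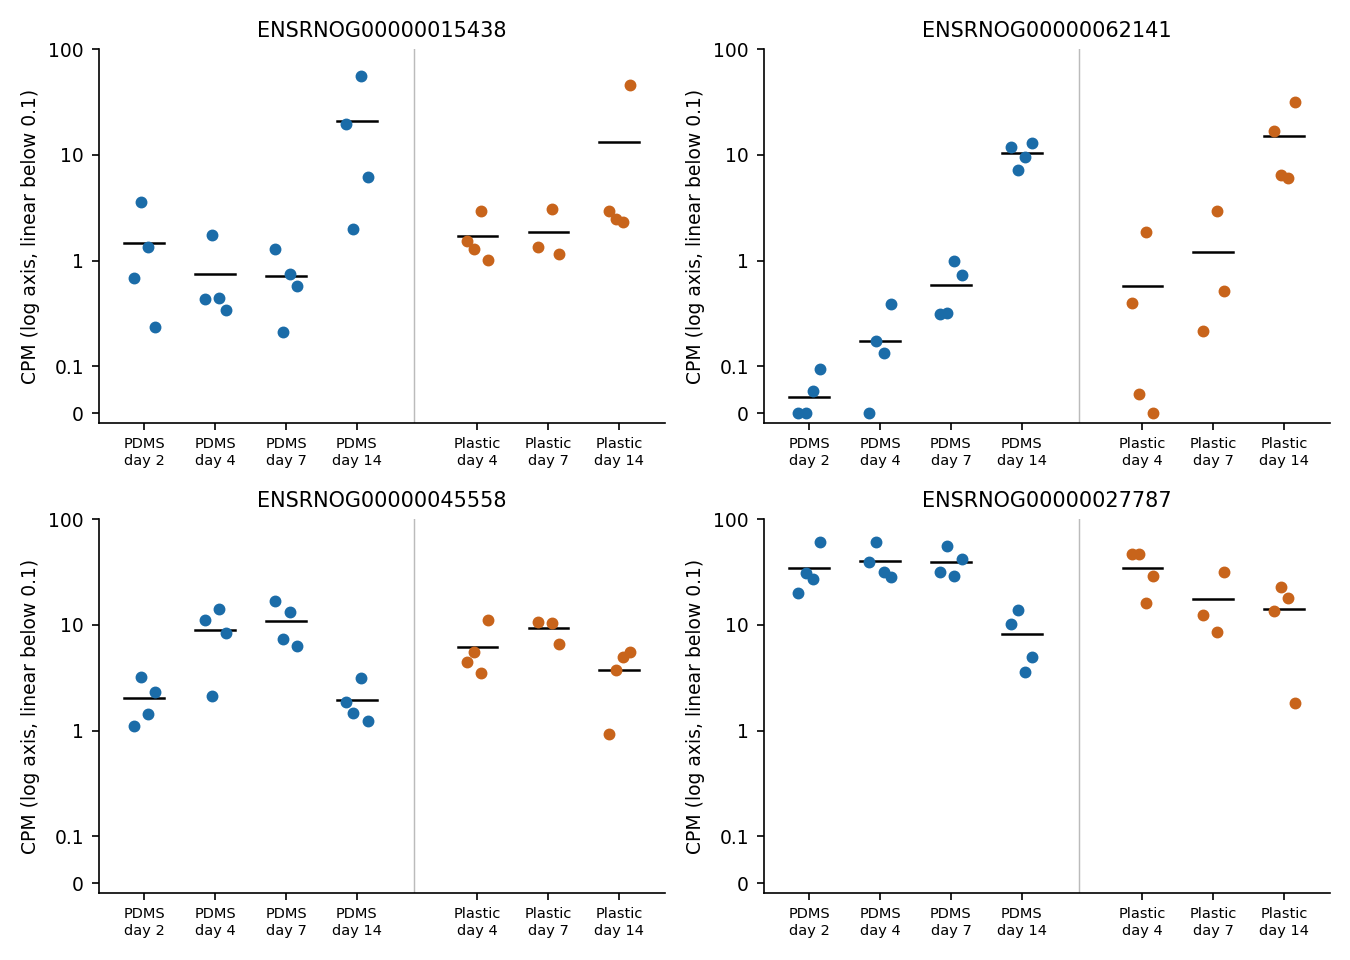
CPM of the 4 named IDs in each library (y, logarithmic above 0.1 CPM) by substrate and day (x), PDMS in blue and plastic in orange, 1 point per library and bars at group means. The upper pair is higher and the lower pair lower in every PDMS day 14 library than in every PDMS day 7 library, and ENSRNOG00000015438 spreads from 1.99 to 56.1 CPM within PDMS day 14.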

How the data were processed

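The table the authors deposited holds unnormalized whole-number counts, with rat Ensembl gene IDs as rows and libraries as columns. FastQC 0.11.2 (read quality) and bamUtil 1.0.11 and dupRadar 1.4 (duplicates) are named in the series design text. The submitters' processing notes also name STAR, Cufflinks 2.2.1 and DESeq2 without their roles. Which program counted the reads, and on which strand setting, build and annotation, is not given in the sources used here. Reads of overlapping, antisense or near-identical genes may be shared or split. Of 28 columns, 27 were used, and 1 matched no listed sample. 0 rows named no gene.

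Genes were kept by filterByExpr (a count of about 10 in a group, a total of at least 15; 14258 of 32753 IDs), scaled by TMM and fitted with edgeR 4.0.16 in R 4.3.3, with 1 mean per group over all 27 libraries (20 residual degrees of freedom, median biological coefficient of variation 0.243). Contrasts used the two-sided quasi-likelihood F test with Benjamini-Hochberg adjustment. Each SE is the size of the fitted log2 change divided by the root of its F statistic. A prior count of 2 entered log2 CPM. Alternatives with DESeq2 1.42.0 and limma 3.58.1 were also run, and the fit was run on simulated data as a check of the scripts.

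The IDs named were those called, not overlapping, changed at least 2-fold and at 5 CPM or more in the higher group, ranked by fold. In all, 92 genes that rose and 75 that fell met this rule. The 29 gene lists drawn up for the comparison are written as symbols and could not be read. The comparison, the lists and the tests were chosen with earlier results of these data known. Replicate numbers are not explained by the labels. Same-numbered PDMS day 14 and day 7 libraries had correlations of -0.16, -0.057, -0.13 and -0.032 in their deviations from group means, so no pairing was assumed. Some same-numbered libraries of other groups shared deviations. PDMS day 4 and Plastic day 4 had correlations of -0.064, 0.58, 0.46 and 0.5 for replicates 1 to 4. Plastic day 14 and day 7 had -0.21, -0.45 and -0.57 for replicates 1, 3 and 4. The main fit of all libraries had no term for the replicate number.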

Additional observations from a re-analysis of the deposited data

Results flagged for a closer look

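Libraries were marked where the gap from the highest or lowest library to the next exceeded the critical share of the range in Dixon's test at the 5% level. This was applied to 48 sets of 4 libraries and marked 7 of them, against 2.4 expected by chance. The sets reuse the same libraries on related measures and are not independent. The 7 against 2.4 is therefore no evidence of an excess of marks. PDMS day 14 replicate 3 was marked for its total of 20.6 M counts (M as in Mb), below the 24.2 to 24.7 M of the others, and for its second principal component score of 60.2. Plastic day 14 replicate 4 was marked for the mean log2 CPM of the genes that rose (4.916, against 4.481 to 4.525 in the others) and of those that fell (4.059, against 4.683 to 4.72), and for 45.6 CPM of ENSRNOG00000015438. PDMS day 2 replicate 4 was marked for the mean log2 CPM of the genes that fell, 5.536 against 5.183 to 5.225. PDMS day 4 replicate 2 was marked for 1.77 CPM of ENSRNOG00000015438, against 0.342 to 0.446 CPM.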

How the results depend on the processing

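For PDMS day 14 against day 7 the count of called genes was within 1.5 times of 788 under 10 of 19 alternatives. It was 354 with no filter on low counts, 1869 in a fit of these groups alone and 1814 with DESeq2. With 1 library of these groups left out it was 5 to 693. A fit without Plastic day 14 replicate 4, not counted among the 19, gave 1433. The next alternatives were chosen after seeing the data. Without PDMS day 14 replicate 3 and Plastic day 14 replicate 4 together the count was 84. A fit of the PDMS libraries gave 1159. The replicate block gave 1006 genes over all libraries, with 750 of the 788, and 875 in these groups alone, with 355 of the 788. For Plastic day 14 against day 7 the count of 12 was 0 with no filter, with these groups alone and with limma-voom. It was 35 with the replicate block, 364 with DESeq2 and 0 to 4 with 1 library left out. Summing the alike pair, chosen after seeing the data, gave 0. For the difference of the steps the count of 0 was 1 with DESeq2 and 0 to 1 with 1 library left out, and 0 with the replicate block. For PDMS day 7 against day 4 the count of 21 was 32 with library size, 4 with no filter, 13 with a filter of 1 CPM, 521 with these groups alone, 3 with the replicate block, 383 with DESeq2, 7 with limma-voom and 1 to 10 with 1 library left out. The causes were not tested. The difference in the effective number of genes ranged from -444 to -301 with 1 library left out, with an adjusted exact p of 0.0857 without any 1 of the PDMS day 14 libraries. The 4 IDs lost their call in 3 to 5 of 19 alternatives each. Genes under 5 CPM had a median SE of 0.61 log2 units, against 0.17 over 100 CPM.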
